A study of Arabidopsis thaliana with 12 samples.

Results

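Receptor-like proteins are membrane proteins of plants with leucine-rich repeats outside the cell, a single membrane span and a short tail without a kinase. The Arabidopsis genes are called RLP with a number, and this account covers the 49 loci of that family listed for it, among 33602 genes in the deposited counts. The list includes CLAVATA2 (CLV2, AT1G65380) and TOO MANY MOUTHS (TMM, AT1G80080), which were described before the numbering. Members were taken by locus, and the family was chosen for description with earlier results of these data known.

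Because they lack a kinase, receptor-like proteins act with partners. Many immune members bind the adaptor kinase SOBIR1 and, after a ligand is sensed, the co-receptor BAK1, and signal through the EDS1, PAD4 and ADR1 proteins. CLV2 works with the pseudokinase CORYNE in meristems and roots, TMM works with kinases of the ERECTA family in the spacing of stomata, and RLP44 links the state of pectin in the wall to brassinosteroid receptors.

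Transcripts were measured by mRNA sequencing in whole Arabidopsis thaliana seedlings aged 6 days that had grown in shaken liquid culture. The 4 groups, each of 3 libraries, were ixr1-1 in 600 nM isoxaben, ixr1-1 in the solvent DMSO, Col-0 in 600 nM isoxaben and Col-0 in DMSO, all for 1 h in fresh medium. Isoxaben is a herbicide that blocks the making of cellulose, and ixr1-1 is an isoxaben-resistant line of the Col-0 ecotype with a point mutation in the cellulose synthase gene CESA3, while Col-0 is the wild type. Counts per gene do not show a point mutation. The labels do not state whether replicate libraries are separate cultures, so the error behind each p-value is that between libraries and could be technical. Seedlings of a flask were split between isoxaben and DMSO per the labels. Libraries of a genotype may therefore share flasks across the media, and agreement between the media may not be an independent repeat.

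Libraries held 8521491 to 20658035 counts, of which 2830 to 7359 fell on the 49 members. That is 0.0316 to 0.0407% of a library in ixr1-1 and 0.0257 to 0.0283% in Col-0. Of the members 37 had enough counts to be tested among 20379 genes, and 12 did not. RLP24, RLP36, RLP41, RLP52 and RLP53 dropped out when only the Col-0 groups entered the fit. They passed the count filter through ixr1-1, the genotype where they are higher, which bears on the counts of members higher in ixr1-1 below. Levels are CPM, read counts scaled to a common library size with TMM factors, and a call means an adjusted p under 0.05 from edgeR's quasi-likelihood test with Benjamini-Hochberg adjustment over all 20379 genes. Shoot and root markers had counts in every group, with sums of 19470 to 27000 CPM for 6 shoot genes and 2887 to 3858 CPM for 7 root genes over the 12 libraries.

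The family was higher in ixr1-1 than in Col-0 in both media, and 2 members changed with isoxaben. Summed over all 49 members, the level was 331.2 ± 21.5 CPM in ixr1-1 isoxaben, 360.1 ± 34.8 CPM in ixr1-1 DMSO, 270.8 ± 14.1 CPM in Col-0 isoxaben and 271 ± 6.55 CPM in Col-0 DMSO (SD, n = 3 each). In DMSO 17 of the 37 tested members were called higher in ixr1-1 and only TMM was called lower. Together that is 48.6% of the tested members, against a background of 17.2% of all tested genes called in either direction, with 9.79% higher and 7.42% lower. In isoxaben 15 members were called higher and TMM again lower, or 43.2%, against 12.8% of all tested genes, with 6.92% higher and 5.85% lower. These counts include RLP41 and RLP53 in both media and RLP52 in DMSO, which passed the count filter through ixr1-1. The median log2 fold change of the tested members was 0.44 in DMSO and 0.41 in isoxaben, while that of all tested genes was -0.0010 and 0.0035. RNA came from whole seedlings, so more cells of a type and more RNA per cell cannot be told apart.

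**Figure D1:**
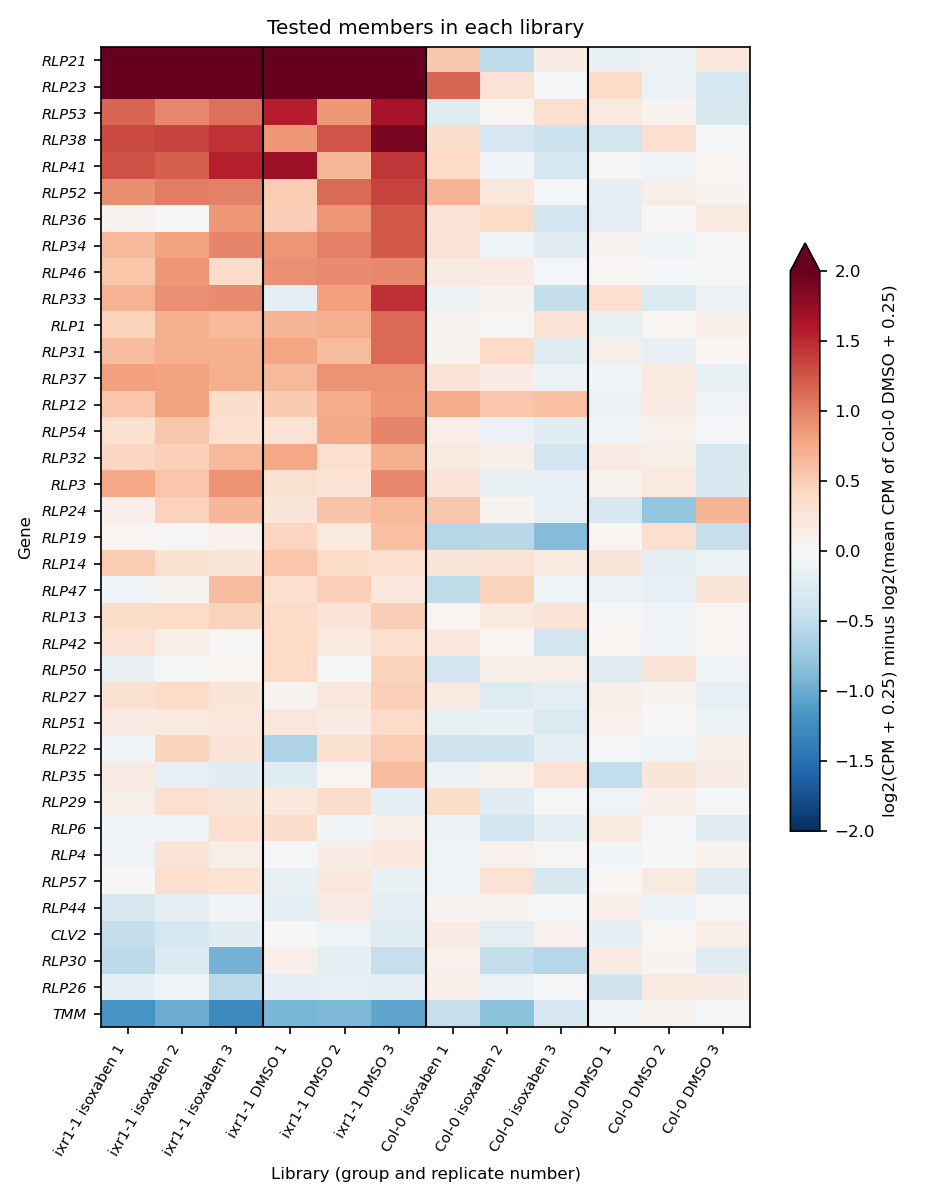
Levels of the 37 tested members in the 12 libraries, as log2(CPM + 0.25) minus the log2 of the Col-0 DMSO mean plus 0.25, with genes ordered by their genotype difference in DMSO and the colour scale ending at 2 in either direction. The 6 ixr1-1 libraries on the left are higher for most genes in the upper part of the plot, while TMM at the foot is lower there.

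Seed transcripts moved with the genotype too. The summed level of 12 seed storage and oil body genes was 111.6, 429.8 and 651.1 CPM in ixr1-1 isoxaben and 219.5, 719.5 and 607.8 CPM in ixr1-1 DMSO. The same sum stayed between 1.032 and 2.51 CPM in Col-0 isoxaben and between 1.023 and 3.407 CPM in Col-0 DMSO. Of the 12 genes, 11 were called higher in ixr1-1 in DMSO and 9 in isoxaben. CRB, CRC, SESA3 and OLEO1 had 0 counts in Col-0 isoxaben, and CRC and CRU2 had 0 counts in Col-0 DMSO. Shoot markers were called lower for 2 of 6 genes in DMSO and 3 of 6 in isoxaben. Among 7 root markers, 1 was called lower in each medium and 1 higher in isoxaben. With the log2 seed storage sum as a covariate no member was called for genotype in either medium, and the median SE of the members was 0.682 in DMSO, against 0.18 without it. The sum separates the genotypes without overlap, so the part of the seed storage level in the genotype differences below and that of the mutation cannot be told apart.

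The largest genotype differences among the tested members were those of RLP21 and RLP23. RLP21 (AT2G25470, chromosome 2, 10838420 to 10841881) had 7.335, 14.59 and 13.48 CPM in ixr1-1 isoxaben and 8.875, 10.36 and 17.33 CPM in ixr1-1 DMSO, against 1.449, 0.5731 and 1.046 CPM in Col-0 isoxaben and 0.8182, 0.8437 and 1.101 CPM in Col-0 DMSO. All 6 ixr1-1 libraries lay above all 6 Col-0 libraries, by a wide gap. The log2 fold change was 3.68 ± 0.40 (SE) in DMSO, which is 12.8-fold with an edgeR adjusted p of 0.000103, and 3.63 ± 0.41 in isoxaben, which is 12.4-fold with an adjusted p of 0.000269.

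RLP23 (AT2G32680, chromosome 2, 13859769 to 13862614) is the receptor for nlp20, a peptide found in toxin-like NLP proteins of bacteria, fungi and oomycetes. It had 5.977, 9.138 and 12.49 CPM in ixr1-1 isoxaben and 6.54, 8.736 and 16.85 CPM in ixr1-1 DMSO, against 2.414, 1.204 and 0.9065 CPM in Col-0 isoxaben and 1.296, 0.8437 and 0.6813 CPM in Col-0 DMSO. Again no library of one genotype reached into the other, although the 3 ixr1-1 libraries of a medium spread over a wide range. The log2 fold change was 3.52 ± 0.51 in DMSO (11.4-fold, edgeR adjusted p 0.0012) and 2.72 ± 0.49 in isoxaben (6.57-fold, adjusted p 0.00662). The isoxaben value minus the DMSO value, tested as the interaction, was -0.80 ± 0.79 and was not called.

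**Figure D2:**
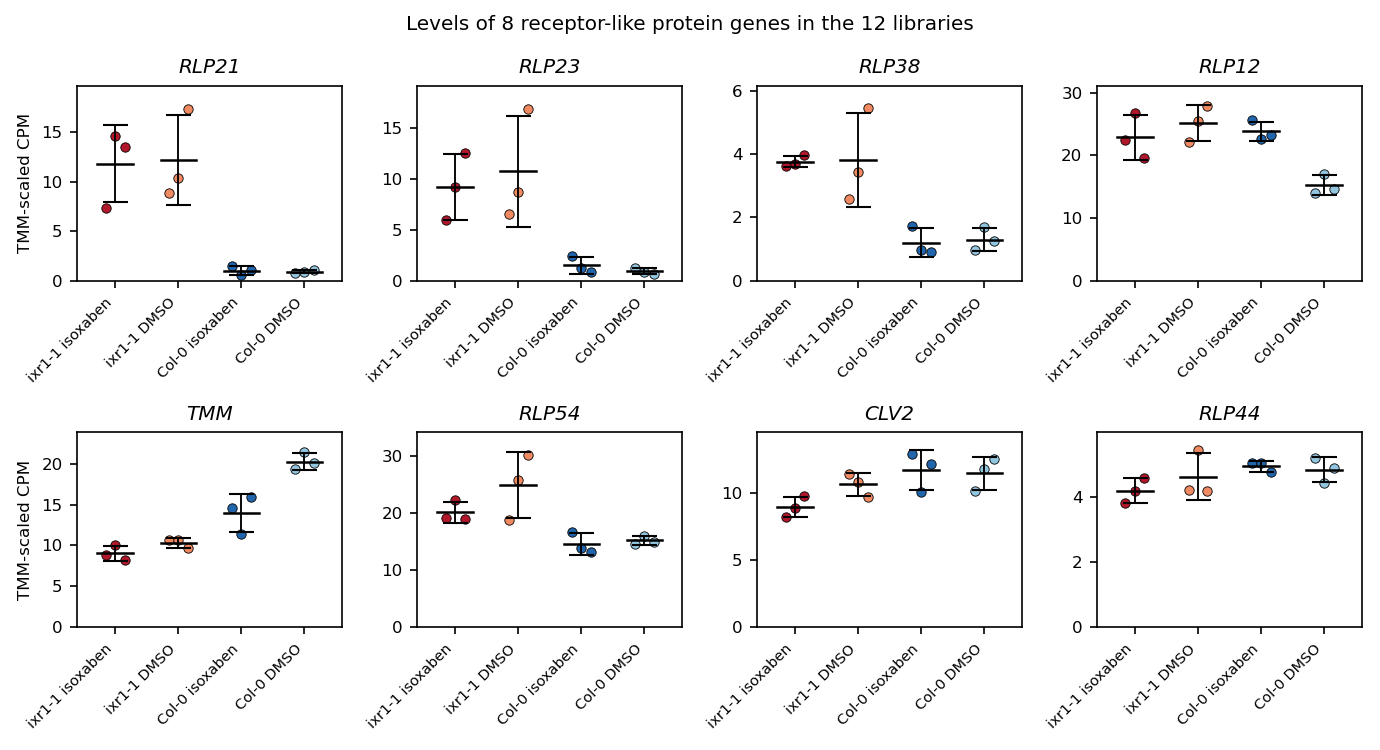
TMM-scaled CPM of RLP21, RLP23, RLP38, RLP12, TMM, RLP54, CLV2 and RLP44 in each library (points), with the group mean and SD (bars, n = 3), for ixr1-1 isoxaben, ixr1-1 DMSO, Col-0 isoxaben and Col-0 DMSO from left to right. RLP21 and RLP23 lie above all Col-0 libraries in ixr1-1, RLP12 is lowest in Col-0 DMSO, TMM is highest in Col-0 DMSO, and CLV2 and RLP44 overlap between most groups.

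Among the 8 members with a described immune role, 5 were called higher in ixr1-1 in DMSO (RLP1, RLP23, RLP32, RLP51 and RLP52) and 4 in isoxaben (RLP1, RLP3, RLP23 and RLP51), and none was called lower. Of these, RLP52 passed the count filter through ixr1-1. The share called higher was 45.9% of the 37 tested members in DMSO and 40.5% in isoxaben, and 9.79% and 6.92% of all tested genes. RLP1, also called ReMAX, senses the eMax fraction of Xanthomonas. It had 9.871, 11.76 and 11.24 CPM in ixr1-1 isoxaben and 11.44, 11.89 and 15.77 CPM in ixr1-1 DMSO, against 7.339, 7.164 and 8.577 CPM in Col-0 isoxaben and 6.341, 7.242 and 7.652 CPM in Col-0 DMSO. The genotypes did not overlap, and the log2 fold change was 0.87 ± 0.13 in DMSO (edgeR adjusted p 0.000167) and 0.52 ± 0.14 in isoxaben (adjusted p 0.0169). With the seed storage covariate the fitted RLP1 difference changed sign, to -0.08 in DMSO and -0.41 in isoxaben, without a call.

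RLP51, known as SNC2 from a gain-of-function allele with constitutive immunity, was among the highest members for its length. Its levels were 20.56, 21.18 and 21.48 CPM in ixr1-1 isoxaben and 21.6, 20.62 and 23.95 CPM in ixr1-1 DMSO, against 16.51, 16.85 and 14.99 CPM in Col-0 isoxaben and 19.64, 18.42 and 17.14 CPM in Col-0 DMSO. The genotypes did not overlap within a medium, yet the shift was small. The log2 fold change was 0.39 ± 0.09 in isoxaben (edgeR adjusted p 0.00748) and 0.26 ± 0.09 in DMSO (adjusted p 0.0482), and the DMSO call ended when any of 9 of the 12 libraries was left out, with DESeq2, without the filter and with only the groups compared.

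RLP32, which senses the bacterial translation initiation factor IF1, had 5.162, 5.384 and 6.147 CPM in ixr1-1 isoxaben and 6.656, 4.869 and 6.427 CPM in ixr1-1 DMSO, against 4.346, 4.127 and 2.859 CPM in Col-0 isoxaben and 4.296, 4.148 and 2.987 CPM in Col-0 DMSO. RLP52, linked to resistance against powdery mildew, had 1.177, 1.275 and 1.256 CPM in ixr1-1 isoxaben and 0.8175, 1.384 and 1.655 CPM in ixr1-1 DMSO, against 0.9657, 0.6305 and 0.4881 CPM in Col-0 isoxaben and 0.4091, 0.5624 and 0.5241 CPM in Col-0 DMSO. Both genes had separate genotypes in each medium. For RLP32 the log2 fold change was 0.63 ± 0.19 in DMSO (edgeR adjusted p 0.0277) and 0.57 ± 0.19 in isoxaben (adjusted p 0.0558). For RLP52 it was 1.39 ± 0.34 in DMSO (adjusted p 0.00818) and 0.88 ± 0.34 in isoxaben (adjusted p 0.0922), and the interaction was called for neither gene. The DMSO call of RLP32 ended without Col-0 DMSO library 3 or ixr1-1 DMSO library 1 or 3, and that of RLP52 without ixr1-1 DMSO library 2.

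RLP3, the product of the RFO2 locus for resistance to Fusarium oxysporum, had 3.804, 3.259 and 4.164 CPM in ixr1-1 isoxaben and 2.686, 2.626 and 4.382 CPM in ixr1-1 DMSO, against 2.607, 1.891 and 1.883 CPM in Col-0 isoxaben and 2.25, 2.461 and 1.677 CPM in Col-0 DMSO. Its log2 fold change was 0.84 ± 0.24 in isoxaben (edgeR adjusted p 0.023) and 0.59 ± 0.24 in DMSO (adjusted p 0.0997). All of the RLP3 exons are overlapped by AT1G17255 on the opposite strand, which had 947 counts against 461 for RLP3. The sources used here do not say whether the counting used strand, so reads of these genes cannot be told apart. RLP30, a receptor for a proteinaceous elicitor of Sclerotinia, and RLP42, which senses fungal polygalacturonases, were not called in any comparison. RLP42 is 95.293% identical to RLP40 over 2677 bases, so its counts are uncertain.

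Of the 8 conserved members, several of which act in development, 7 were tested. RLP51 was called higher and TMM lower in both media while the other 5 were not called, with log2 fold changes between -0.11 and 0.18 in DMSO and between -0.37 and 0.23 in isoxaben. Of all tested genes 9.79% were called higher and 7.42% lower in DMSO, and 6.92% and 5.85% in isoxaben. TMM (AT1G80080, chromosome 1, 30128005 to 30129591) had 8.784, 10.06 and 8.196 CPM in ixr1-1 isoxaben and 10.63, 10.69 and 9.64 CPM in ixr1-1 DMSO, against 14.58, 11.41 and 15.97 CPM in Col-0 isoxaben and 19.36, 21.37 and 20.02 CPM in Col-0 DMSO. Every ixr1-1 library lay below every Col-0 library. On the log2 scale TMM fell by 0.97 ± 0.12 in DMSO (edgeR adjusted p 1.61e-05), and the fall in isoxaben measured -0.62 ± 0.12 (adjusted p 0.0028).

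None of 6 markers of the stomatal lineage, where TMM is expressed, was called in any of the 5 comparisons. Their summed level was 16.13 to 18.47 CPM in ixr1-1 isoxaben, 17.33 to 18.33 CPM in ixr1-1 DMSO, 14.58 to 18.9 CPM in Col-0 isoxaben and 16.35 to 18.49 CPM in Col-0 DMSO. These ranges overlap between the genotypes in each medium. For isoxaben in Col-0 the log2 fold changes of the 6 markers ran from -0.90 for EPF1 to 0.22 for POLAR, with 4 below 0. Whether the TMM differences go with cells of this lineage was not tested.

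CLV2 had 8.241, 8.926 and 9.782 CPM in ixr1-1 isoxaben and 11.44, 10.88 and 9.738 CPM in ixr1-1 DMSO, against 12.94, 10.09 and 12.2 CPM in Col-0 isoxaben and 10.16, 11.81 and 12.58 CPM in Col-0 DMSO. In isoxaben the ixr1-1 libraries lay below the Col-0 libraries, with a log2 fold change of -0.37 ± 0.12 and an edgeR adjusted p of 0.0571. RLP44 had 3.804, 4.179 and 4.561 CPM in ixr1-1 isoxaben and 4.204, 5.442 and 4.187 CPM in ixr1-1 DMSO, against 5.022, 5.044 and 4.742 CPM in Col-0 isoxaben and 5.182, 4.429 and 4.874 CPM in Col-0 DMSO. Its genotype difference was -0.03 ± 0.15 in DMSO and -0.23 ± 0.16 in isoxaben, and the approximate 95% intervals ran from -0.32 to 0.27 and from -0.54 to 0.08.

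The remaining 34 members have less settled roles. Of these 23 were tested, and 12 were called higher in ixr1-1 in DMSO and 11 in isoxaben. The shares of all tested genes called higher were 9.79% and 6.92%. RLP38 had 3.622, 3.684 and 3.966 CPM in ixr1-1 isoxaben and 2.569, 3.437 and 5.453 CPM in ixr1-1 DMSO, against 1.738, 0.9743 and 0.9065 CPM in Col-0 isoxaben and 0.9546, 1.687 and 1.258 CPM in Col-0 DMSO. Its neighbour RLP37 had 15.85, 15.66 and 14.81 CPM in ixr1-1 isoxaben and 14.01, 16.61 and 16.65 CPM in ixr1-1 DMSO, against 10.72, 9.915 and 8.228 CPM in Col-0 isoxaben and 8.455, 10.12 and 7.914 CPM in Col-0 DMSO. Neither gene overlapped between genotypes. RLP38 had log2 fold changes of 1.55 ± 0.28 in DMSO and 1.70 ± 0.29 in isoxaben, and RLP37 had 0.85 ± 0.12 and 0.69 ± 0.12, with edgeR adjusted p of at most 0.000853 for these 4 values.

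RLP41 had 1.811, 1.7 and 2.247 CPM in ixr1-1 isoxaben and 2.569, 1.098 and 2.045 CPM in ixr1-1 DMSO, against 0.8691, 0.5731 and 0.4184 CPM in Col-0 isoxaben and 0.6137, 0.5624 and 0.6289 CPM in Col-0 DMSO. RLP53 had 1.177, 0.9917 and 1.124 CPM in ixr1-1 isoxaben and 1.635, 0.907 and 1.753 CPM in ixr1-1 DMSO, against 0.2897, 0.4012 and 0.5579 CPM in Col-0 isoxaben and 0.4773, 0.4218 and 0.2621 CPM in Col-0 DMSO. Both were low genes that passed the count filter through ixr1-1, and their genotypes stayed apart. RLP41 was 2.85-fold higher in DMSO and 3.20-fold higher in isoxaben, and RLP53 3.46-fold and 2.53-fold, with the isoxaben call of RLP53 ending without any of 5 libraries and with DESeq2.

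RLP34 had 8.06, 8.996 and 10.18 CPM in ixr1-1 isoxaben and 9.459, 10.36 and 12.17 CPM in ixr1-1 DMSO, against 6.18, 4.757 and 4.254 CPM in Col-0 isoxaben and 5.318, 4.711 and 5.084 CPM in Col-0 DMSO. RLP46 had 9.418, 11.83 and 8.262 CPM in ixr1-1 isoxaben and 12.15, 12.51 and 12.56 CPM in ixr1-1 DMSO, against 7.243, 7.164 and 6.206 CPM in Col-0 isoxaben and 6.478, 6.187 and 6.394 CPM in Col-0 DMSO. In DMSO the RLP46 libraries of each genotype were close together and far from the other genotype. RLP34 was 2.11-fold higher in DMSO and 1.83-fold in isoxaben, and RLP46 1.95-fold and 1.43-fold. Genes on the opposite strand overlap 3.2% of the RLP34 exons and 21.4% of the RLP46 exons.

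RLP31 had 11.5, 12.4 and 12.29 CPM in ixr1-1 isoxaben and 12.96, 11.55 and 16.46 CPM in ixr1-1 DMSO, against 7.629, 9.743 and 6.206 CPM in Col-0 isoxaben and 7.978, 6.538 and 7.6 CPM in Col-0 DMSO. RLP54 had 19.02, 22.17 and 18.97 CPM in ixr1-1 isoxaben and 18.68, 25.78 and 30.09 CPM in ixr1-1 DMSO, against 16.71, 13.93 and 13.11 CPM in Col-0 isoxaben and 14.59, 16.03 and 14.88 CPM in Col-0 DMSO. Both genes had separate genotypes in each medium. RLP31 was 1.82-fold higher in DMSO and 1.52-fold in isoxaben, and RLP54 1.65-fold and 1.39-fold. In isoxaben the calls of RLP1, RLP31, RLP46 and RLP54 each ended when any of 2 to 4 single libraries was left out, and the fitted isoxaben difference of RLP54 was -0.05 with the seed storage covariate.

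RLP13 had 14.13, 14.31 and 14.94 CPM in ixr1-1 isoxaben and 14.36, 13.18 and 15.48 CPM in ixr1-1 DMSO, against 11.3, 12.49 and 13.11 CPM in Col-0 isoxaben and 10.98, 10.55 and 11.27 CPM in Col-0 DMSO. RLP14 had 9.871, 8.501 and 8.196 CPM in ixr1-1 isoxaben and 10.16, 8.927 and 8.764 CPM in ixr1-1 DMSO, against 8.112, 8.31 and 7.81 CPM in Col-0 isoxaben and 8.182, 6.046 and 6.342 CPM in Col-0 DMSO. The genotypes were apart in DMSO for both, and in isoxaben only for RLP13. These neighbours were called higher in DMSO, 1.30-fold for RLP13 and 1.35-fold for RLP14, and not called in isoxaben. The RLP13 call ended without ixr1-1 DMSO library 3, and the RLP14 call without any of 4 DMSO libraries and with DESeq2.

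RLP19 had 3.079, 3.046 and 3.173 CPM in ixr1-1 isoxaben and 4.087, 3.437 and 4.674 CPM in ixr1-1 DMSO, against 1.931, 1.949 and 1.534 CPM in Col-0 isoxaben and 3.068, 3.797 and 2.096 CPM in Col-0 DMSO. The Col-0 isoxaben libraries were the lowest of all 12. RLP19 was 1.72-fold higher in ixr1-1 in isoxaben and RLP33 2.12-fold, and neither was called in DMSO. The isoxaben call ended for RLP19 without any of the 6 isoxaben libraries, for RLP33 without any of 8 libraries and for RLP3 without any of 3. RLP19 was also not called in isoxaben by DESeq2 or limma-voom.

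Called higher in both media were 12 members, namely RLP1, RLP21, RLP23, RLP31, RLP34, RLP37, RLP38, RLP41, RLP46, RLP51, RLP53 and RLP54. They make up 70.6% of the list in DMSO and 80.0% of the list in isoxaben. That overlap is a description, since the same shares over all tested genes were not counted. RLP12, RLP13, RLP14, RLP32 and RLP52 were called in DMSO alone and RLP3, RLP19 and RLP33 in isoxaben alone, but of these 8 the difference between the media was called only for RLP12. Called and at least 2-fold higher were 7 members in DMSO and 6 in isoxaben, a description without the same count over all tested genes. The ixr1-1 library numbered 1, which had the lowest seed storage sum of its group in each medium, was also the lowest of its 3 for 8 of the 12 members in DMSO and 7 in isoxaben. That count is a description without the same count over all tested genes, and its link to the seed storage level was not tested. Leaving out both ixr1-1 libraries numbered 1 gave 16 members higher and 1 lower in DMSO, and 14 higher and 1 lower in isoxaben. In DMSO that fit lost RLP14, RLP32 and RLP51 and gained RLP33 and RLP36, and in isoxaben it lost RLP19 and RLP53 and gained RLP22.

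**Figure D3:**
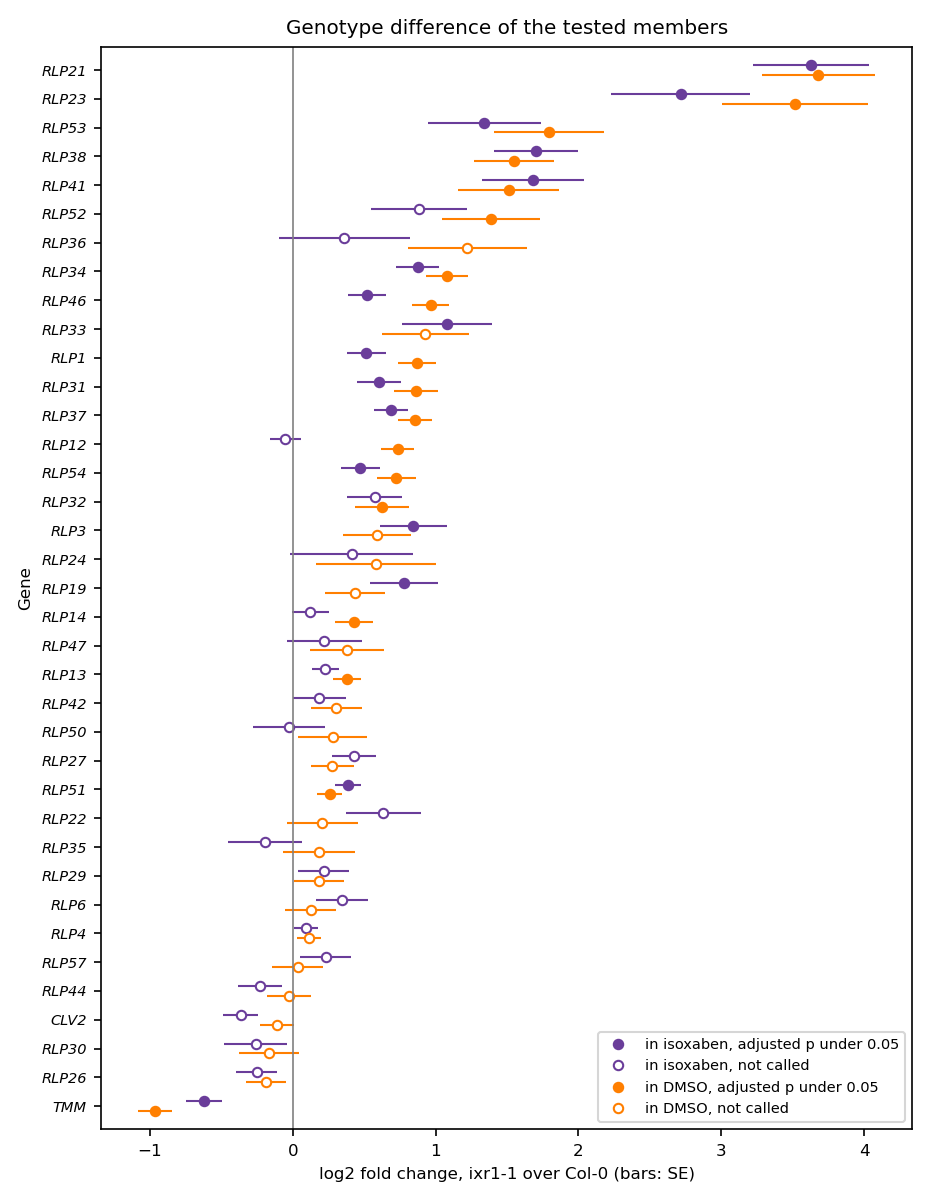
Log2 fold change of ixr1-1 over Col-0 for the 37 tested members in isoxaben (purple) and in DMSO (orange), with SE as bars and filled points for an adjusted p under 0.05. RLP21 and RLP23 lie furthest to the right in both media, RLP12 is near 0 in isoxaben, and TMM is furthest to the left.

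Isoxaben for 1 h changed 2 of the 37 tested members in Col-0, or 5.41%, against 0.78% of all tested genes. RLP12 was called higher and TMM lower, with 0.613% and 0.167% of all genes called in those directions. RLP12 (AT1G71400, chromosome 1, 26909835 to 26912597) can take the place of CLV2 when expressed from the CLV2 promoter. It had 25.59, 22.58 and 23.29 CPM in Col-0 isoxaben against 14.05, 17.01 and 14.57 CPM in Col-0 DMSO, which do not overlap. The log2 fold change was 0.64 ± 0.11 (1.56-fold, edgeR adjusted p 0.00565). TMM fell by 0.54 ± 0.11 on the log2 scale in Col-0, to 0.686 of the DMSO level (adjusted p 0.02), and its groups did not overlap either.

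The RLP12 call in Col-0 ended without Col-0 DMSO library 3, and the TMM call ended without Col-0 DMSO library 2 or 3 or Col-0 isoxaben library 2. So the count of called members was 0 without Col-0 DMSO library 3 and 1 without Col-0 DMSO library 2 or Col-0 isoxaben library 2. Over 21 alternatives the log2 fold change stayed between 0.59 and 0.73 for RLP12, with adjusted p from 0.00045 to 0.0574. For TMM it stayed between -0.66 and -0.40, with adjusted p from 0.00505 to 0.184.

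In ixr1-1 no member was called for isoxaben by edgeR, DESeq2 or limma-voom, nor was any of the 20379 genes (0%). At an unadjusted edgeR p under 0.05 there were 2 members, RLP46 at -0.34 ± 0.12 and RLP54 at -0.32 ± 0.13 on the log2 scale, and 742 genes. RLP12 had 22.46, 26.71 and 19.56 CPM in ixr1-1 isoxaben against 22.07, 25.49 and 27.85 CPM in ixr1-1 DMSO, which overlap. These levels lie near that of Col-0 isoxaben, and Col-0 DMSO is the low group. The RLP12 difference of ixr1-1 from Col-0 was 0.73 ± 0.11 in DMSO (edgeR adjusted p 0.000195) and -0.05 ± 0.11 in isoxaben (adjusted p 0.819).

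The isoxaben effect on RLP12 was -0.14 ± 0.11 in ixr1-1 and 0.64 ± 0.11 in Col-0, and the interaction was -0.78 ± 0.16 with an edgeR adjusted p of 0.0389. RLP12 was the only member called for the interaction, or 2.7%, against 0.314% of all tested genes, with 0.0589% higher and 0.255% lower. That call ended when any of 9 of the 12 libraries was left out and with limma-voom, with adjusted p from 0.00384 to 0.16 over 20 alternatives. Col-0 DMSO enters the isoxaben effect in Col-0, the genotype difference in DMSO and the interaction, so these values for RLP12 and TMM share 3 libraries. For TMM the isoxaben effect was -0.20 ± 0.13 in ixr1-1, and the interaction of 0.34 ± 0.17 was not called.

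RLP21 and RLP23 were not called for isoxaben. In Col-0 the log2 fold change was 0.03 ± 0.62 for RLP21 and 0.62 ± 0.70 for RLP23, and in ixr1-1 it was -0.02 ± 0.28 and -0.19 ± 0.37. Their approximate 95% intervals in Col-0 ran from -1.17 to 1.24 and from -0.76 to 1.99, which include changes of 2-fold. The SE in Col-0 was 0.36 for RLP21 and 0.38 for RLP23 when only the groups compared entered the fit, again without a call. CLV2 and RLP44 differed by 0.01 ± 0.12 and 0.03 ± 0.15 in Col-0, with intervals from -0.22 to 0.24 and from -0.26 to 0.32.

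**Figure D4:**
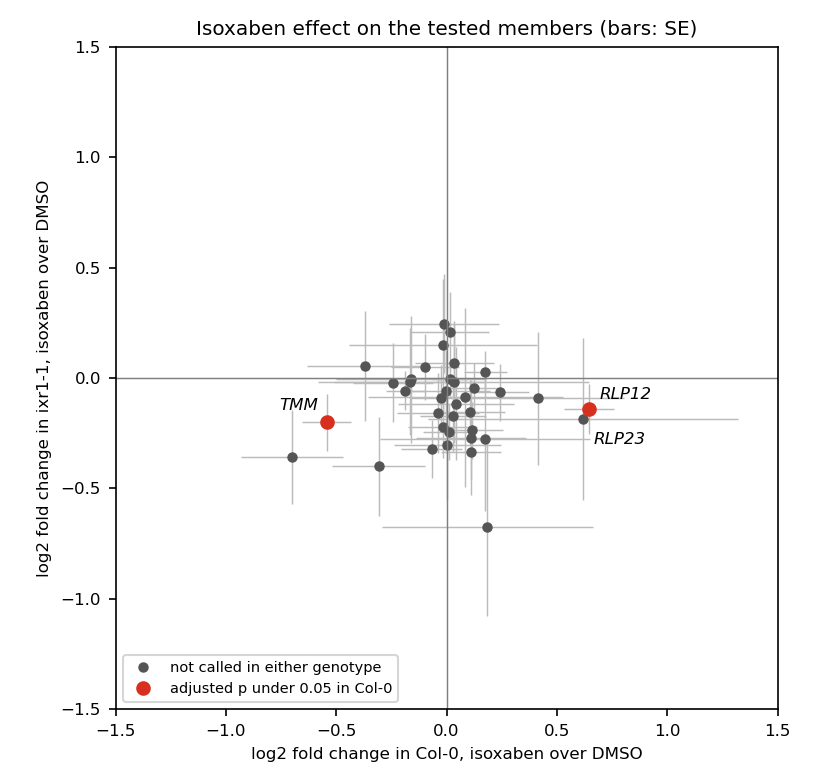
Log2 fold change of isoxaben over DMSO in ixr1-1 (vertical axis) and in Col-0 (horizontal axis) for the 37 tested members, with SE as bars and red points for an adjusted p under 0.05 in Col-0. RLP12 at 0.64 and TMM at -0.54 are the red points, and no gene is called in ixr1-1.

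Genes known to work with the immune members were counted from a list of 14 adaptors, co-receptors and downstream signalling genes, all tested. The list was chosen with earlier results of these data known, so its shares are a description. In DMSO 12 of the 14 were called higher in ixr1-1, or 85.7%, against the 9.79% of all genes called higher, and in isoxaben 5 were (35.7%, against 6.92%). SOBIR1, the adaptor kinase of many receptor-like proteins, had a log2 fold change of 1.42 ± 0.21 in DMSO (edgeR adjusted p 0.00163) and 0.87 ± 0.21 in isoxaben (adjusted p 0.0264). A gene on the opposite strand overlaps 22.9% of its exons. The cytoplasmic kinase gene BIK1 had 0.95 ± 0.16 and 0.83 ± 0.16, and the co-receptor gene SERK4 had 0.83 ± 0.11 and 0.81 ± 0.11. EDS1, a hub of immune signalling, had 0.69 ± 0.12 and 0.43 ± 0.12, and the helper receptor gene ADR1-L1 had 0.68 ± 0.08 and 0.44 ± 0.08. BAK1 had means of 60.17 CPM in ixr1-1 isoxaben, 67.63 in ixr1-1 DMSO, 58.76 in Col-0 isoxaben and 51.5 in Col-0 DMSO. PAD4 had 16.06, 16.65, 18.39 and 11.57 CPM in that order, so in isoxaben its mean was lower in ixr1-1. For isoxaben in Col-0 only PAD4, a partner of EDS1, was called, with 0.67 ± 0.11 (adjusted p 0.00401), and none of the 14 was called for isoxaben in ixr1-1 or for the interaction.

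A second list, chosen in the same way, held 11 partners of CLV2, TMM and RLP44, all tested. In DMSO 4 were called higher in ixr1-1 (CLV1, BAM2, BAM3 and PSKR1) and 1 lower (ERL2), and in isoxaben 3 higher (CLV1, BAM2 and BAM3) and 1 lower (CRN). Among all tested genes 9.79% were called higher and 7.42% lower in DMSO, and 6.92% and 5.85% in isoxaben. The receptor kinase gene of the meristem CLV1 had log2 fold changes of 0.42 ± 0.08 in DMSO and 0.44 ± 0.08 in isoxaben. PSKR1, a phytosulfokine receptor that works with RLP44, had 1.05 ± 0.18 in DMSO. ERL2, an ERECTA-family kinase, fell by 0.30 ± 0.10 in DMSO on the log2 scale. CRN, the CORYNE partner of CLV2, fell by 0.41 ± 0.13 in isoxaben. None of the 11 was called for isoxaben in either genotype.

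The family spans a wide range of levels when counts are set against exon length. In Col-0 DMSO the tested members ran from 0.1347 to 22.32 CPM per kb of exon, with a median of 1.706, and 7 lay above 5 CPM per kb and 15 under 1. RLP4, which also carries a malectin-like domain, had the highest level, at 24.01 CPM per kb in ixr1-1 isoxaben, 24.05 in ixr1-1 DMSO, 22.51 in Col-0 isoxaben and 22.32 in Col-0 DMSO, and was called in no comparison. RLP51 followed with 16.26, 17.02, 12.44 and 14.2 CPM per kb in the same group order. TMM had 5.679, 6.503, 8.812 and 12.76 CPM per kb in that order. RLP21 and RLP23 were among the low members in Col-0 DMSO, at 0.3279 and 0.3303 CPM per kb, while in ixr1-1 DMSO they had 4.341 and 3.762 CPM per kb.

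**Figure D5:**
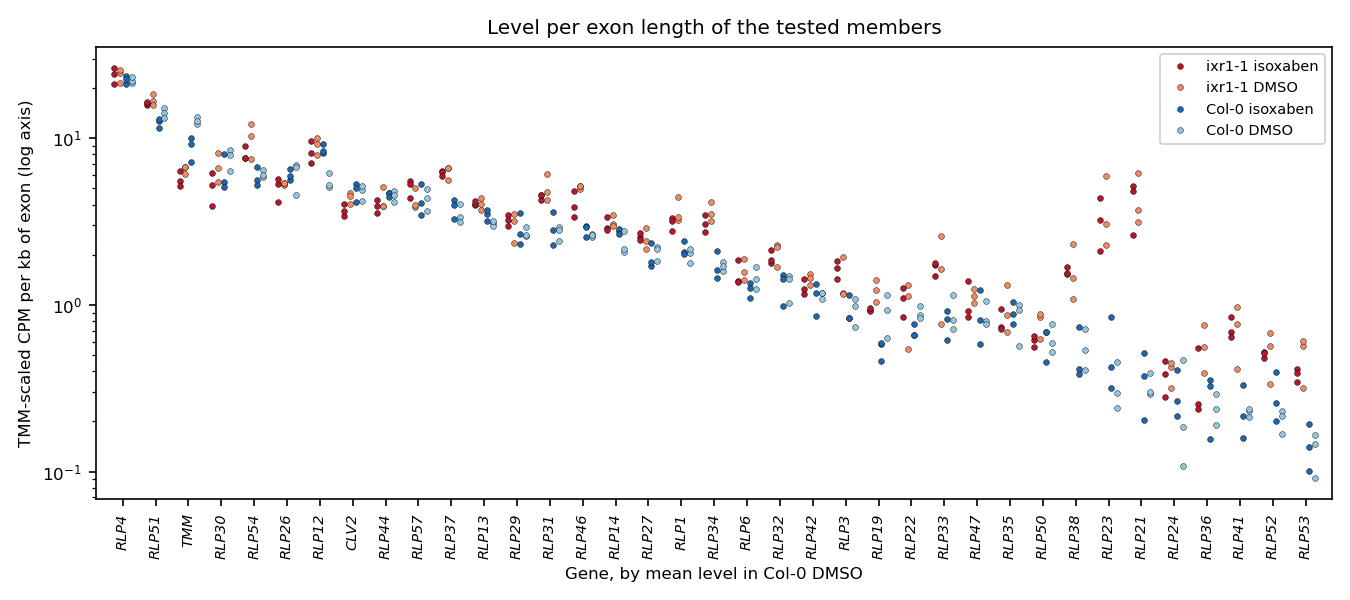
TMM-scaled CPM per kb of exon (log axis) of the 37 tested members in the 12 libraries, ordered by the mean of Col-0 DMSO, with ixr1-1 isoxaben, ixr1-1 DMSO, Col-0 isoxaben and Col-0 DMSO from left to right for each gene. RLP4 is the highest gene in every group, and RLP21 and RLP23 stand out from their neighbours in ixr1-1.

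Receptor-like protein genes often lie next to each other. With at most 20 kb between gene ends, 31 of the 49 members fell into 12 groups, the largest of 5, and 18 stood alone. Of 22 tested members in groups, 11 were called higher in ixr1-1 in DMSO and 9 in isoxaben, and of 15 outside groups 6 were called in each medium, where 9.79% and 6.92% of all tested genes were called higher. Neighbours did not always move together. RLP22, next to RLP23, had a log2 fold change of 0.21 ± 0.25 in DMSO and 0.63 ± 0.26 in isoxaben, and was not called. RLP30, next to RLP31, had -0.17 ± 0.21 in DMSO and -0.26 ± 0.22 in isoxaben.

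The 300 bases upstream of a gene were read for RLP21 and RLP38, which were higher in ixr1-1 in both media, for RLP12, which rose with isoxaben in Col-0, and for TMM, which was lower. They come from RefSeq TAIR10.1, end at the base before the RefSeq gene start, and are given 5′ to 3′ on the strand of the gene. The windows are chr2:10837994-10838293 on the plus strand for RLP21, chr3:8229620-8229919 on the minus strand for RLP38, chr1:26909492-26909791 on the plus strand for RLP12 and chr1:30129650-30129949 on the minus strand for TMM. Capitals mark W boxes, the sites of WRKY factors, searched as TTGACC or TTGACT on either strand.
RLP21: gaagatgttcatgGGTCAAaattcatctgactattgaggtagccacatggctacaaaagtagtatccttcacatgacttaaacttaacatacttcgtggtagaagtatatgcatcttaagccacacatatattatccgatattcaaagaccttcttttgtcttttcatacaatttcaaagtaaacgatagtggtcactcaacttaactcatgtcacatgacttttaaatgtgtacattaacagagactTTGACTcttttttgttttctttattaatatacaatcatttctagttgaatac
RLP38: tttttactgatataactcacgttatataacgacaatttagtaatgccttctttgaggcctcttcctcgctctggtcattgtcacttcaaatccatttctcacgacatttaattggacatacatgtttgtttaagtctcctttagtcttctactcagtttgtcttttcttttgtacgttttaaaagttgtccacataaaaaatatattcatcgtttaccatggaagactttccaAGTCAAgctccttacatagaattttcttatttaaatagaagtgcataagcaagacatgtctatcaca
RLP12: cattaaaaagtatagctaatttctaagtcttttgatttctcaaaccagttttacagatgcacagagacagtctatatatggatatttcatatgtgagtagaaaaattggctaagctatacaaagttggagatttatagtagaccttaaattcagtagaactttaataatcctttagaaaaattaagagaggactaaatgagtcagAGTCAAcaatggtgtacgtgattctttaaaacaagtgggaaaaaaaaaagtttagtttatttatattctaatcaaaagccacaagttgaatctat
TMM: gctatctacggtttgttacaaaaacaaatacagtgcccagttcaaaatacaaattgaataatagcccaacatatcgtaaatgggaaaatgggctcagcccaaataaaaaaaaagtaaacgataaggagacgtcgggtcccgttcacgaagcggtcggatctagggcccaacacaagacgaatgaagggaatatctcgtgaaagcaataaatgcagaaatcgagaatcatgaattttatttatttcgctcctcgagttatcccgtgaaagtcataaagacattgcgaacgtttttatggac

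RLP21 held 2 W boxes, beginning 287 and 52 bases before the gene start, RLP38 held 1 at 67 bases and RLP12 held 1 at 95 bases, while the TMM window held none. The RLP23 window held 2, at 163 and 100 bases, but RefSeq starts that gene at its start codon, so the window may include transcribed bases. The same limit applies to RLP37 and RLP52, which were called higher in DMSO, and to RLP3 and RLP24, which were not. Each of these windows held a W box. A W box was present in 11 of the 17 members called higher in DMSO (64.7%) and in 9 of the 20 tested members that were not. The 17 include RLP41, RLP52 and RLP53, which passed the count filter through ixr1-1. Of the 12 called higher in both media, a subset of the 17, 9 held one (75.0%), and RLP31, RLP41 and RLP46 held none. RLP4, RLP30 and RLP50, called in no comparison, held 2 each. Among the 37 tested members the share was 54.1%, and among 27443 protein-coding genes with windows of the same length it was 32.3%. A match describes letters in the window and not binding.

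The 16 tested members called in no comparison were CLV2, RLP4, RLP6, RLP22, RLP24, RLP26, RLP27, RLP29, RLP30, RLP35, RLP36, RLP42, RLP44, RLP47, RLP50 and RLP57. RLP36 came closest to the threshold, with a log2 fold change of 1.22 ± 0.42 in DMSO and an edgeR adjusted p of 0.0505. The opposite strand overlaps 72.9% of the RLP26 exons and 100% of the RLP50 exons.

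The 12 members that were not tested were RLP2, RLP7, RLP11, RLP15, RLP20, RLP25, RLP28, RLP39, RLP40, RLP43, RLP48 and RLP55. RLP25 had 0 counts in all 12 libraries, which allows a level of up to 0.0176 CPM, from 3 counts of the summed total and for counting error only. RLP20, the neighbour of RLP21, had 36 counts over the 6 ixr1-1 libraries and 7 over the 6 Col-0 libraries. RLP43 had 45 and 8 counts, RLP40 had 41 and 15, and RLP39 had 13 and 3, with the ixr1-1 sum given ahead of the Col-0 sum. The ixr1-1 sum was the larger in these 4 genes, which are low in all libraries and were picked out for it. A gene on the opposite strand with 428 counts overlaps 4.0% of the RLP43 exons. RLP40 is 95.293% identical to RLP42 over 2677 bases, so the counts of RLP43 and RLP40 are uncertain. Without the filter the log2 fold change of RLP20 was 2.83 ± 0.79 in DMSO and 1.97 ± 0.79 in isoxaben. That of RLP43 was 2.62 ± 0.70 in DMSO and 2.42 ± 0.86 in isoxaben. Both genes were picked by these same counts, so no test of the difference is given.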

How the data were processed

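The authors deposited unnormalized whole-number counts for each gene, 1 file per library, in featureCounts format per the file headers. Tools in the submitters' processing notes are featureCounts 1.4.6, STAR 2.4.1, FastQC 11.1 and bcl2fastq, whose roles are not stated. The library kit is stranded per the labels. The sources used here do not give the strand setting of the counting, the build or the annotation. Gaps between exons in the files had GT and AG at their ends on TAIR10.1 in 97.9% of 120747 cases, and in 48 of 53 for the members (90.6%). Gene positions are those of the files.

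Groups and replicate numbers came from the labels. After filterByExpr and TMM scaling, edgeR 4.0.16 in R 4.3.3 fitted 1 robust quasi-likelihood model (glmQLFit, glmQLFTest) with a term per group to all 12 libraries. P-values were adjusted by Benjamini-Hochberg over 20379 genes within each of 5 comparisons, with a threshold of 0.05. SE is the size of the log2 fold change over the root of F, and approximate 95% intervals follow from it. Replicate pairs differed by a chi-square per degree of freedom of 2.77 to 6.8. The fit was tested on simulated data. Near-identical copies (at least 95%) were sought with blastn 2.17.0.

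The members, the lists and the rule for named genes were chosen with earlier results of these data known. Values per library are given for up to 20 called members by smallest adjusted p and for RLP21, RLP23, RLP44, CLV2 and TMM. In the lists of partners up to 6 called genes with the smallest adjusted p could be named, and not all are printed. RLP20, RLP43, RLP40, RLP39, RLP36, RLP22, RLP30 and the group means of BAK1 and PAD4 were chosen for mention after their values were seen. Alternatives were DESeq2 size factors, DESeq2 1.42.0, limma-voom (limma 3.58.1), no filter, only the groups compared, replicate blocks, the seed storage level as a covariate, both ixr1-1 libraries numbered 1 left out, and each library left out.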

Additional observations from a re-analysis of the deposited data

Results flagged for a closer look

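RLP12 stands out because the interaction test found its isoxaben effect different between the genotypes. The difference, ixr1-1 minus Col-0, was -0.7845 on the log2 scale (edgeR adjusted p 0.0389), from an effect of -0.14 ± 0.11 (SE) in ixr1-1 and 0.64 ± 0.11 in Col-0. RLP12 was higher in all 3 Col-0 isoxaben libraries than in all 3 Col-0 DMSO libraries, while the ixr1-1 groups overlapped. The interaction call ended when any of 9 of the 12 libraries was left out. It also ended with limma-voom, with the seed storage covariate and without both ixr1-1 libraries numbered 1.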

How the results depend on the processing

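Of 37 called results, 21 kept their call in every alternative except the seed storage covariate, and another 2, RLP12 and TMM for isoxaben in Col-0, kept it under the covariate but not when single libraries were left out. Over 742 alternatives of called results, 110 lost the call in the same direction and 3 reversed, and 19 of 3026 alternatives of uncalled results gained one, for 7 results. With the seed storage covariate the number of called members was 0 for genotype in DMSO, 0 for genotype in isoxaben and 0 for the interaction. The same covariate reversed RLP1 in DMSO to -0.0819, RLP1 in isoxaben to -0.41 and RLP54 in isoxaben to -0.0506. It separates the genotypes, and the median SE was 0.682 in DMSO and 0.665 in isoxaben, against 0.18 and 0.184 without it. The interaction count was also 0 with limma-voom and 0 without both ixr1-1 libraries numbered 1, and the cause was not tested.

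Leaving out each library gave 0 to 2 called members for isoxaben in Col-0, 0 for isoxaben in ixr1-1, 15 to 19 for genotype in DMSO, 9 to 16 for genotype in isoxaben and 0 to 1 for the interaction. Genotype in isoxaben gave 10 without Col-0 isoxaben library 3, 10 without ixr1-1 isoxaben library 2 and 9 without ixr1-1 isoxaben library 3.

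The labels say that seedlings of a flask were split between isoxaben and DMSO, but not that a number marks a flask. Same-numbered libraries had correlations of 0.03 to 0.312 between treatments, against -0.313 to 0.114 for different numbers, and -0.0491 to 0.152 between genotypes. In Col-0 every library correlated best with its own number across treatments, and in ixr1-1 not every library did. Not all pairs exceeded 0.1, so the numbers were not taken as pairing. The replicate block by flask gave 2 called members for isoxaben in Col-0, 0 in ixr1-1 and 1 for the interaction. The replicate block by number gave 2, 0 and 1 for these, with 19 for genotype in DMSO and 18 in isoxaben, adding RLP36 in DMSO and RLP32 and CLV2 in isoxaben.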
